A study of Mus musculus with 24 samples.

Results

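Neuronal RNA-binding and splicing regulators are described here in 24 RNA-sequencing libraries of mouse embryos without the centriole protein CEP135 and of their controls. The 10 genes were chosen by symbol, out of 54658 in the deposited table, and all 10 were in it. They were the neuronal Elav-like genes *Elavl2*, *Elavl3* and *Elavl4*, the Rbfox genes *Rbfox1*, *Rbfox2* and *Rbfox3*, *Nova1* and *Nova2*, and the polypyrimidine tract-binding genes *Ptbp1* and *Ptbp2*. All 10 passed the filter on low values, a mean normalized read count of at least 10, in every comparison. Dorsal telencephalon was taken from *Cep135*(Δ8/Δ8) embryos, labelled Cep135 (-/-) and called mutants here, and from *Cep135*(+/+) embryos, called controls. There were 3 mutant and 3 control cortices at E11.5 (E, embryonic day) and 3 of each at E14.5. Cells of the same 6 E14.5 cortices were also cultured in suspension for 12 and for 24 hours to form incipient neurospheres, free-floating clusters in which neural progenitors divide. The mutant allele was carried in the whole embryo and not in 1 cell type, and the labels state no drug treatment. Embryos of E14.5 were numbered 1, 2 and 6 (mutant) and 3, 4 and 5 (control) and share 1 prefix in their names, while those of E11.5 are numbered 1 to 3 within each genotype, with one prefix for mutant 1 and control 1 and another for the other 4. The labels do not say what a prefix stands for, and for mutants 2 and 3 of E11.5 it is TC48 in the title but TL48 in the description and in the table, while controls 2 and 3 are TC48 throughout. The label of mutant 6's cortex gives both ages in different fields, and it was taken as E14.5, the age in its title.

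Progenitors and neurons of the cortex splice many transcripts in different ways, and these proteins are among the best known regulators of that switch. PTBP1 is made in progenitors, where it holds back neuronal exons and lowers PTBP2 by the splicing of its transcript. In young neurons PTBP1 gives way to PTBP2, and the Elav-like, RBFOX and NOVA proteins bind pre-mRNA and 3′ ends and steer neuronal exons and the stability of neuronal messages. RBFOX3 is the antigen known as NeuN, a marker of maturing neurons, and the antibodies against HuC/D that mark newborn neurons bind ELAVL3 and ELAVL4.

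Libraries were primed at the polyA tail, and each read came from the last part of a transcript, so a count measures how much of a transcript was present and not which exons were joined. The splicing activity of these proteins was not measured. A value here is a normalized read count, the reads of a gene divided by 1 size factor per library, and is compared between libraries and not between genes. The libraries held 4732781 to 11645213 reads on genes. *Cep135* itself, read outside what the deletion removes, had medians of 318 in controls and 329 in mutants at E11.5 and 176 and 224 at E14.5, which does not check the labels. In the 24-hour cultures the mutant libraries were deeper than the control ones (7903426 to 11645213 against 4732781 to 5709443 reads), and *Gm42418*, an RNA gene with ribosomal sequence, took 20.5% to 23.0% of their counts against 6.26% to 13.9%. By *Xist* and Y-linked transcripts, the controls of E14.5 were all male, mutants 1 and 2 were female and mutant 6 was male. At E11.5, controls 1 and 3 and mutant 2 were male, and control 2 and mutants 1 and 3 were female. Of the 10 postmitotic neuron markers examined (*Tubb3*, *Dcx*, *Map2*, *Stmn2*, *Snap25*, *Neurod2*, *Neurod6*, *Tbr1*, *Bcl11b* and *Syt1*), none was at 0 in every library of any group, and neither was any of the 10 apical progenitor markers.

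On the GRCm38 genome (GENCODE vM21), the Elav-like genes lie at chr4:91250763-91400785 (*Elavl2*), chr9:22015005-22052023 (*Elavl3*) and chr4:110203722-110351909 (*Elavl4*), all on the minus strand. *Rbfox1* spans chr16:5885355-7411526 on the plus strand, and *Rbfox2* and *Rbfox3* lie at chr15:77078990-77307004 and chr11:118489762-118911597 on the minus strand. *Nova1* lies at chr12:46694517-46818929 (minus) and *Nova2* at chr7:18925888-18965319 (plus). *Ptbp1* lies at chr10:79854427-79864771 (plus) and *Ptbp2* at chr3:119718742-119784466 (minus). In this release exons of *Elavl3* and *Nova1* overlap those of the predicted genes *Gm49318* and *Gm33869* on the same strand. Counting cannot assign a read shared by such exons. The authors counted on an earlier GENCODE release, in which these overlaps were not checked. RefSeq's promoter table for GRCm38.p6 matched 9 of the 10 genes, all but *Rbfox2*.

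The 250 bases before the start are printed 5′ to 3′ on the gene's strand for 4 genes with 1 listed start each, an Elav-like and an Rbfox gene as examples and both *Ptbp* genes: *Elavl3* (chr9:22052024-22052273, minus) and *Rbfox3* (chr11:118761042-118761291, minus), which were higher in older cortex as described next, *Ptbp1* (chr10:79854182-79854431, plus), which was lower, and its paralogue *Ptbp2* (chr3:119783389-119783638, minus). The RefSeq starts of *Rbfox3* (118761041) and *Ptbp2* (119783388) lie inside the GENCODE spans given above, that of *Rbfox3* far from its 5′ end. Their windows thus do not reach the 5′ ends of those spans. Capitals mark CANNTG, the E-box that proneural factors of the bHLH class bind, searched on both strands.
Elavl3: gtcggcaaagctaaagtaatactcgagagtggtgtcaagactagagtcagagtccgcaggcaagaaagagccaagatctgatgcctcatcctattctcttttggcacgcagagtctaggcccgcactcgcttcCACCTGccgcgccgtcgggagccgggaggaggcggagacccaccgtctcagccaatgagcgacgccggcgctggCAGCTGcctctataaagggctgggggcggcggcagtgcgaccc
Rbfox3: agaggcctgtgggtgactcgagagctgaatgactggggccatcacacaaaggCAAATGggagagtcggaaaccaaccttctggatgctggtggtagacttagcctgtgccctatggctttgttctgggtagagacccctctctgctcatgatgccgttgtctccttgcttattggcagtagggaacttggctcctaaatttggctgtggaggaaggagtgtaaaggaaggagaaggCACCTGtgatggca
Ptbp1: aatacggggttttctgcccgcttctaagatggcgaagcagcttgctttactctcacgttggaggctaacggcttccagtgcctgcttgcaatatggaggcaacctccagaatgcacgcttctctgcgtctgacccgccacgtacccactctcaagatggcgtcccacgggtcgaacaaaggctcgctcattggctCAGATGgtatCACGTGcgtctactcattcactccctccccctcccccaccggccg
Ptbp2: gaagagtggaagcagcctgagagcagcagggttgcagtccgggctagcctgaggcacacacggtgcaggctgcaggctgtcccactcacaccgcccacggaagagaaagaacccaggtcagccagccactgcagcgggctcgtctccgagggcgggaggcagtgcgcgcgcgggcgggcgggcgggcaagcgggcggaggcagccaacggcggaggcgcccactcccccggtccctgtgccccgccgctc
There were 2 matches each before *Elavl3*, *Rbfox3* and *Ptbp1* and 0 before *Ptbp2*, and 66.2% of the 32851 promoters in the table held at least 1. The *Elavl3* window also held CAGCTG, 43 bases before its start, and the *Ptbp1* window CAGATG at 55 bases, each of which is one of the marked matches; 13% and 14.4% of all promoters held these letters. The *Ptbp2* window was 72.4% G and C and held GGGCGG, the letters of a GC box, 6 times, on both strands together, and 32.7% of promoters held it. These matches are a description of letters in a window and were not tied to the counts.

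The comparison of the 2 ages asks how the regulators stood early, when the cortical wall is mostly progenitors, and 3 days later, when neurons are being made in number. Of the 10 genes, 8 rose between E11.5 and E14.5, *Ptbp1* fell, and *Nova1* was not called (the 2 ages compared by limma on log2 values, 12 cortices, genotype as a term, Benjamini-Hochberg adjusted p under 0.05). Of the 13650 genes tested, 53.1% were called, 23.8% higher and 29.3% lower, so a call by itself was common. For 7 of the 8 and for *Ptbp1* the ages did not overlap in any library, which held for 15.5% of all genes upward and 14.9% downward. The median log2 fold change was 0.95 over the 10 genes and -0.08 over all genes tested. No name prefix was shared by the 2 ages, so age and whatever the prefix marks cannot be told apart. In bulk tissue, more cells of a type and more RNA per cell cannot be told apart either. The summed count of the 10 neuron markers was 9213 to 13645 at E11.5 and 31867 to 43912 at E14.5, with all 10 called higher, and that of the 10 apical progenitor markers was 18755 to 23074 and 12732 to 14285. The part of these shifts in the values below was not tested.

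*Rbfox1*, which regulates exons of ion channel and synaptic transcripts, had the largest change of the 10 with age. The younger controls had normalized read counts of 30.2, 58.5 and 46.6 and the younger mutants 33.5, 36.8 and 33.9. These were 33 to 70 reads a library where whole reads were recovered, in all but control 1. At E14.5 *Rbfox1* was at 696, 605 and 722 in controls 3, 4 and 5 and 458, 424 and 464 in mutants 1, 2 and 6. The lowest E14.5 library thus stood above the highest E11.5 library, and the log2 fold change was 3.79 ± 0.14 (SE), a fold of 13.8 (adjusted p = 1.04e-11, limma). The ratio of group means was 14.9 in controls and 12.9 in mutants.

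*Rbfox3*, the NeuN antigen, had counts of 135, 193 and 255 in E11.5 controls and 126, 219 and 148 in E11.5 mutants. At E14.5 it had 840, 846 and 1214 in controls and 842, 719 and 1077 in mutants. The ages did not overlap, and the log2 fold change was 2.38 ± 0.17 (adjusted p = 1.02e-08, limma). *Rbfox2*, the member of the family that is also made outside neurons, was at 923 to 1272 in the 6 E11.5 cortices and at 1743 to 2236 in the 6 of E14.5. It rose by 0.90 ± 0.08 on the log2 scale (adjusted p = 2.32e-07, limma). Of the summed counts of the 3 Rbfox genes, *Rbfox2* made up 78.6% to 88.5% at E11.5 and 52.7% to 60.6% at E14.5, and *Rbfox1* 2.10% to 4.98% and 14.0% to 18.5%. These shares are not corrected for transcript ends and serve only to set libraries side by side.

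*Elavl3* had counts of 1877, 1788 and 2264 in E11.5 controls and 1280, 1564 and 1346 in E11.5 mutants. At E14.5 it had 4910, 4438 and 4036 in controls and 3822, 3675 and 4076 in mutants. All 6 older cortices were above all 6 younger ones, with a log2 fold change of 1.32 ± 0.09 (adjusted p = 8.92e-09, limma). *Elavl2* rose by 1.15 ± 0.11, from 1662 to 2810 at E11.5 to 4225 to 5246 at E14.5, and *Elavl4* by 1.01 ± 0.09, from 1625 to 2259 to 3347 to 4262 (adjusted p = 3.02e-07 and 8.06e-08, limma). The folds of the 3 genes lay between 2.02 and 2.50, and the ages overlapped for none of them.

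*Nova2* and *Nova1*, founders of the NOVA class that binds clusters of YCAY in pre-mRNA, differed in their relation to age. *Nova2* was at 321 to 528 at E11.5 and 626 to 881 at E14.5 and rose by 0.86 ± 0.13 (adjusted p = 2.88e-05, limma). *Nova1* was at 675, 562 and 766 in E11.5 controls and 647, 584 and 628 in E14.5 controls, and at 468, 885 and 564 in E11.5 mutants and 1242, 1219 and 707 in E14.5 mutants. Its log2 difference with age was 0.32 ± 0.19 (adjusted p = 0.172, limma). The ratio of its group means, E14.5 over E11.5, was 0.928 in controls and 1.65 in mutants, and the genotype-by-age term was 0.83 ± 0.32 (unadjusted p = 0.0216, adjusted p = 0.62, limma).

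*Ptbp1* was the 1 gene of the 10 that fell. It had 859, 1015 and 852 in E11.5 controls and 1104, 914 and 932 in E11.5 mutants, and 409, 404 and 464 in E14.5 controls and 602, 592 and 605 in E14.5 mutants. The ages did not overlap, and the log2 fold change was -0.90 ± 0.09 (adjusted p = 7.54e-07, limma). *Ptbp2* rose by 0.40 ± 0.10 (adjusted p = 0.00322, limma), the smallest of the 8 rises, and its ages overlapped, with 964 to 1363 at E11.5 and 1276 to 1745 at E14.5. The log2 of *Ptbp2* over *Ptbp1* lay between -0.17 and 0.68 in the 6 cortices of E11.5 and between 1.18 and 1.81 in the 6 of E14.5, so that no library of one age reached the range of the other.

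**Figure D1:**
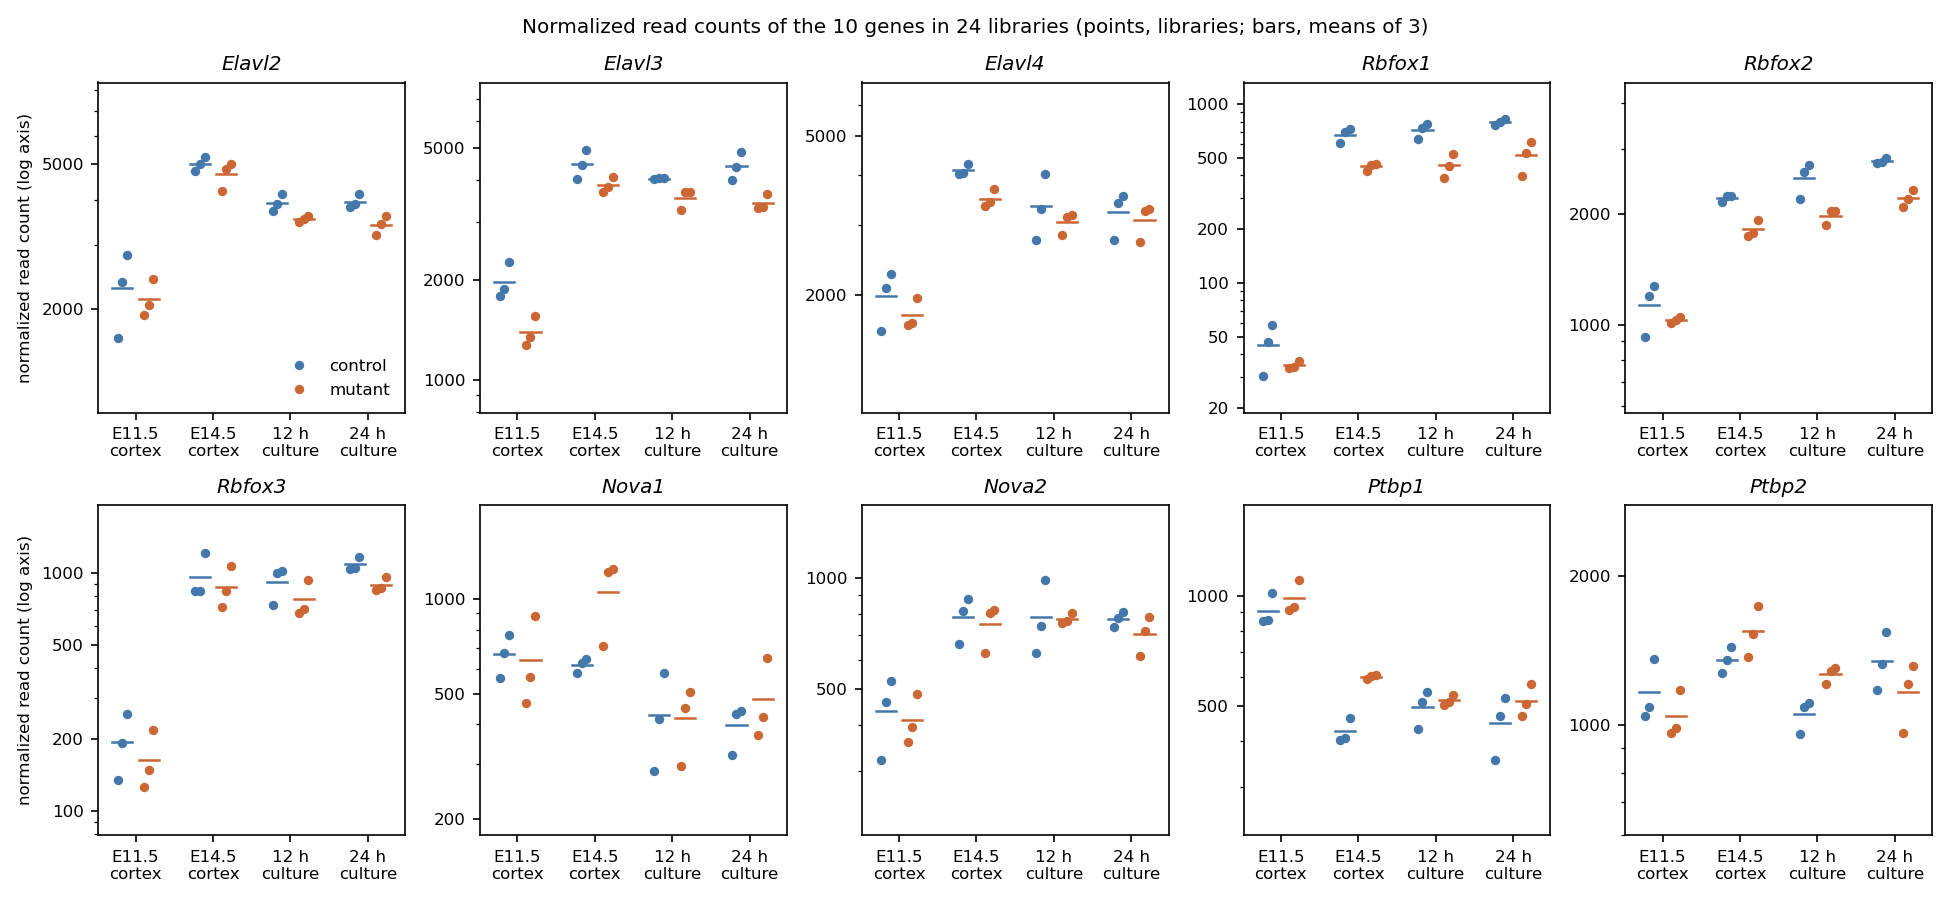
Normalized read counts (log axis) of the 10 genes in 24 libraries, by age or culture time on the x axis, with controls in blue and mutants in orange (points, libraries; bars, means of 3). *Rbfox1* moved from 30.2 to 58.5 at E11.5 to 424 to 722 at E14.5, and *Ptbp1* moved from 852 to 1104 down to 404 to 605.

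The comparison of 12-hour cultures with the cortices they came from asks how these transcripts stood once cells had left the tissue. Of the 10 genes, 3 fell, *Nova1*, *Elavl2* and *Ptbp2*, and 0 rose, where 30.2% of the 13601 genes tested were called, 16.1% lower and 14.1% higher (limma, 6 cultures against 6 cortices, genotype as a term). The called differences were in the same direction in all 6 embryos for each of the 3. So were those of *Elavl3* (-0.28 to -0.0045 on the log2 scale) and *Elavl4*, which were not called. The share of all genes that moved one way in all 6 embryos was not computed. *Nova1* had counts of 584, 416 and 285 in the 12-hour cultures of controls 3, 4 and 5 and 451, 508 and 296 in those of mutants 1, 2 and 6. All 6 cultures were below the lowest E14.5 cortex for *Elavl2* and *Nova1* and for none of the other 8 genes, where 7.76% of all genes were, and for *Nova1* by under 1 normalized read. The log2 fold change of *Nova1* was -0.96 ± 0.20, a fold of 0.515 (adjusted p = 0.00239, limma). By embryo its change was -0.15, -0.49 and -1.13 in controls 3, 4 and 5 and -1.46, -1.26 and -1.26 in mutants 1, 2 and 6, and the genotype-by-culture term was -0.73 ± 0.37 (adjusted p = 0.793, limma).

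*Elavl2* fell by 0.38 ± 0.08 on the log2 scale (adjusted p = 0.00185, limma), with -0.48 to -0.28 in the 6 embryos. *Ptbp2* fell by 0.33 ± 0.09 (adjusted p = 0.0103, limma), with -0.59 to -0.18. *Elavl4* was lower in all 6 cultures than in the cortex of the same embryo, with log2 differences of -0.55 to -0.0070, and its log2 difference of -0.25 ± 0.09 missed the threshold (adjusted p = 0.051, limma), while 8 of the alternatives called it, with DESeq2 on whole reads among them (adjusted p = 0.0428). DESeq2 thus called 4 of the 10 genes where it called 33.2% of all genes. EdgeR called the same 3 genes as limma, with 28.8% of all genes called. The other 6 genes had log2 differences between -0.13 and 0.15. Microglia, endothelial and meningeal markers were much lower in culture, with summed counts of 6.31 to 42.5, 24.3 to 116 and 118 to 256 in the 12-hour cultures against 406 to 948, 827 to 994 and 1434 to 2442 in the E14.5 cortices. Of the apical progenitor markers 7 of 10 were called lower and 1 higher, with a median of -0.90. Their sums overlapped, at 10272 to 14449 in culture against 12732 to 14285 in cortex. Neuron marker sums also overlapped, at 30038 to 47264 against 31867 to 43912. Intermediate progenitor sums were 1729 to 2247 against 2878 to 3257. All 6 erythroid markers were called higher, with sums of 69321 to 152783 against 38158 to 45237. The part of these markers in the values of *Elavl2*, *Nova1* and *Ptbp2* was not tested.

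Between 12 and 24 hours of culture limma called 0 of the 10 genes, as did edgeR and DESeq2, where limma called 0.292% of 13359 genes, edgeR 0.314% and DESeq2 1.2%. At an unadjusted p under 0.05, which 9.64% of all genes passed by limma, limma gave 1 gene, *Rbfox3*, with a log2 difference of 0.24 ± 0.11 (adjusted p = 0.489). EdgeR and DESeq2 gave 0, where the share of all genes was not computed. *Rbfox2* was higher at 24 hours in all 6 embryos, by 0.014 to 0.34 on the log2 scale, and was not called (adjusted p = 0.522, limma). *Ptbp2* had higher counts at 24 than at 12 hours in all 3 controls (958, 1107 and 1090 to 1177, 1544 and 1328) and lower ones in mutants 1 and 6 (1306 to 1214 and 1213 to 964). Its genotype-by-time term of -0.49 ± 0.20 was not called (unadjusted p = 0.0269, adjusted p = 1, limma).

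**Figure D2:**
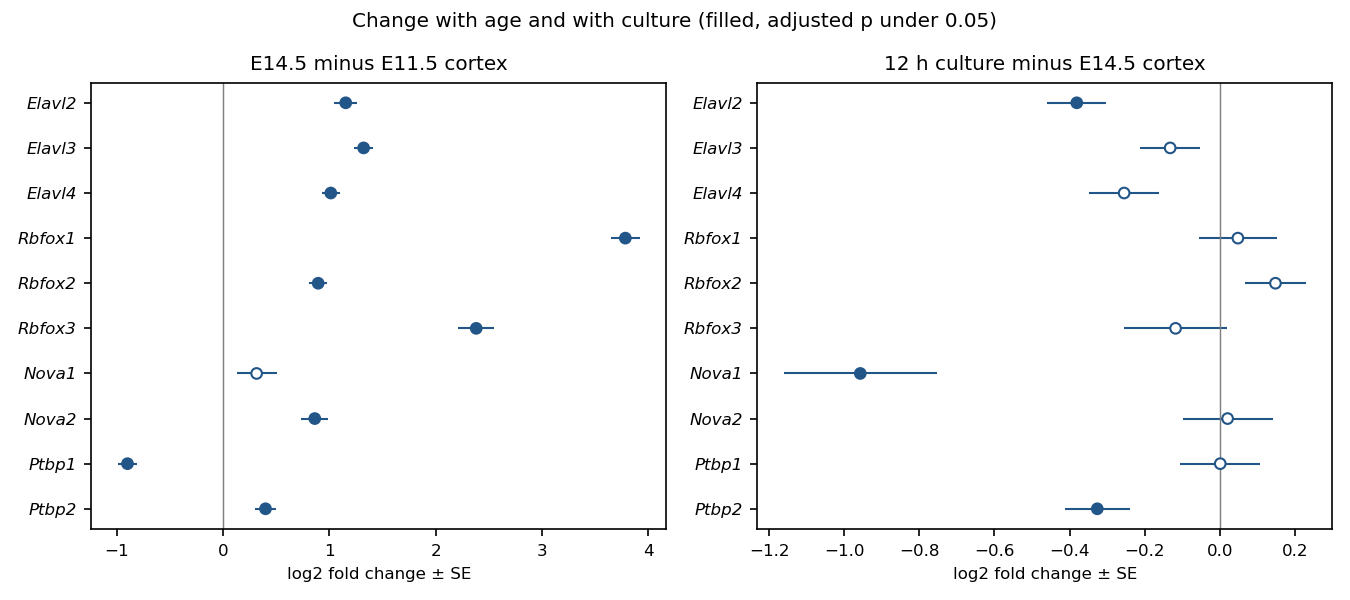
Log2 fold change ± SE (x axis) of each gene between the 6 E14.5 and 6 E11.5 cortices (left) and between the 6 cultures of 12 hours and the 6 E14.5 cortices (right), with filled points for an adjusted p under 0.05. With age 8 genes were higher and *Ptbp1* lower, and in culture *Nova1*, *Elavl2* and *Ptbp2* were lower.

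The comparison of mutants with controls asks whether loss of CEP135 changed these regulators at either age or in culture. Limma called 0 of the 10 genes in each of the 4 comparisons of 3 mutant with 3 control libraries. The background was 0.0149% of genes called for the younger cortices, 0.0736% for the older ones, 0% for the 12-hour cultures and 0.271% for the 24-hour ones. At an unadjusted p under 0.05 it gave 1, 4, 2 and 4 of the 10, where 7.39%, 9.1%, 4.85% and 10.6% of all genes passed. With embryo sex as a term these counts were 1, 2, 1 and 1 of the 10. The shares of all genes in those fits were not computed, so the change in the counts is not read as one of these genes. EdgeR on whole reads called 0 of the 10 in the last 3 (background 0.0663%, 0% and 0.301%). DESeq2 called *Rbfox1* and *Nova1* at E14.5, 0 genes at 12 hours and *Rbfox1* at 24 hours (background 0.471%, 0.0672% and 1.37%). The median log2 fold change over the 10 genes was -0.14, -0.12, -0.14 and -0.21 in the 4 comparisons in that order, beside 0.02, 0.01, -0.02 and -0.01 over all genes. Of the 10 genes, 1, 3, 4 and 5 were lower in all 3 mutants than in any control, beside 6.11%, 6.71%, 5.94% and 9.06% of all genes, and the last 3 of these counts come from the same 6 embryos. All 3 Elav-like and all 3 Rbfox genes had a negative fold change in all 4, but with embryo sex as a term *Elavl2* at E11.5, *Rbfox3* at E14.5 and *Elavl4* at 24 hours became 0.082, 0.18 and 0.033, and fits without 1 library turned *Elavl2* at E11.5, *Rbfox3* at E14.5 and *Elavl4* in both cultures. An exact permutation test of 3 against 3 libraries cannot go below 0.1.

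*Rbfox1* had the lowest adjusted p of the 10 genes in E14.5 cortex and in the 24-hour cultures. Its counts at E14.5, given above, did not overlap between genotypes, with mutants at 66.6% of the control mean. At 12 hours it had 735, 640 and 778 in controls and 528, 386 and 450 in mutants, and at 24 hours 826, 795 and 766 in controls and 535, 399 and 618 in mutants. The mutant values were thus below every control value in the older cortex and both cultures, in libraries of the same 6 embryos, and overlapped those of controls at E11.5. Its log2 fold changes, for the younger and the older cortex and then the 2 culture times, were -0.32 ± 0.27, -0.58 ± 0.13, -0.66 ± 0.18 and -0.64 ± 0.16 (adjusted p = 0.782, 0.249, 0.913 and 0.111, limma). With DESeq2 the adjusted p was 0.036 for the older cortex and 0.0427 for the later cultures, and over the alternatives that keep all libraries it ranged from 0.036 to 0.832 and from 0.0392 to 0.545. With no filter on low values the later cultures gave *Rbfox1* as the 1 gene of the 10 called, where 0.534% of all genes were. The 24-hour value moved to -0.36 with embryo sex as a term, more than 1.5 times nearer 0.

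*Rbfox2* was also below every control in mutants of the older cortex and both cultures. It had 2236, 2230 and 2154 in E14.5 controls and 1925, 1743 and 1770 in E14.5 mutants, and 2718, 2186 and 2590 against 2033, 1864 and 2031 at 12 hours. At 24 hours it had 2745, 2764 and 2839 in controls and 2195, 2088 and 2320 in mutants. The log2 fold changes were -0.28 ± 0.11, -0.33 ± 0.14 and -0.34 ± 0.11, none called (adjusted p = 0.512, 0.913 and 0.247, limma). *Rbfox3* was lower in all 3 mutants than in any control only at 24 hours, where it had 1174, 1041 and 1058 in controls and 868, 852 and 966 in mutants (log2 fold change -0.28 ± 0.12, adjusted p = 0.423, limma). *Rbfox1* made up 16.4% to 18.5%, 16.5% to 17.96% and 16.4% to 17.4% of the Rbfox counts in the control cortices of E14.5 and cultures of 12 and 24 hours, and 14.0% to 14.7%, 13.04% to 15.1% and 11.9% to 15.8% in the mutant ones. These ranges did not overlap, and the difference of shares was not tested.

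*Elavl3* had the lowest p of the 10 at E11.5 (unadjusted 0.00229, limma). Its mutant counts were below every control count (log2 fold change -0.50 ± 0.12, adjusted p = 0.512, limma). They also were among embryos with the same prefix in the title, at 1280 against 1877 for one and 1564 and 1346 against 1788 and 2264 for the other, where the second holds only if the title's prefix and not the table's is right. At E14.5 its genotypes overlapped (-0.21 ± 0.13). At 12 hours it had 4057, 4044 and 4023 in controls and 3680, 3244 and 3691 in mutants, and at 24 hours 4862, 3989 and 4363 against 3305, 3317 and 3643. Both cultures were without overlap, with log2 fold changes of -0.19 ± 0.12 and -0.36 ± 0.11 (adjusted p = 0.913 and 0.245, limma). *Elavl2* was at 90.0% and 86.3% of the control mean in the 12- and 24-hour mutant cultures, without overlap, and at 93.4% and 93.6% in cortex, with overlap. *Elavl4* was lower without overlap only at E14.5, at 84.9% of the control mean (-0.24 ± 0.12, adjusted p = 0.569, limma).

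At E14.5, *Ptbp1* and *Nova1* were higher in all 3 mutants than in any control, where 7.02% of all genes were higher without overlap. The *Ptbp1* counts of 602, 592 and 605 in mutants and 409, 404 and 464 in controls gave a log2 fold change of 0.50 ± 0.13 (adjusted p = 0.331, limma). With embryo sex as a term it was 0.51 (adjusted p = 0.737, limma), a fit in which 1 male mutant carries the genotype difference among males, and the part of sex in this value was not otherwise tested. At E11.5 and in culture its genotypes overlapped, with log2 fold changes of 0.11 ± 0.12, 0.07 ± 0.18 and 0.22 ± 0.17. The genotype-by-age term of *Ptbp1* was 0.38 ± 0.16 and its genotype-by-culture term -0.43 ± 0.19 (unadjusted p = 0.0331 and 0.0406, adjusted p = 0.62 and 0.793, limma). The interaction tests called 0 of the 10 genes by limma in all 3 families (background 0% in each), with 2, 1 and 1 genes at an unadjusted p under 0.05 for age, culture and culture time (background 7.84%, 5.32% and 2.38%). EdgeR and DESeq2 also called 0 for culture and culture time (background 0.00735% and 0.0368% for culture, 0% and 0% for culture time).

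*Nova1* at E14.5 differed by 0.72 ± 0.20 on the log2 scale (adjusted p = 0.367, limma), and by 0.75 with DESeq2 (adjusted p = 0.04). The value rested on mutants 1 and 2, at 1242 and 1219. Mutant 6 was at 707, near the controls at 584 to 647. Without mutant 6 the log2 fold change was 0.99 and was called (adjusted p = 0.0118, limma, with 0.222% of all genes called), and with embryo sex as a term it was 0.19. Mutants 1 and 2 were the female embryos, so sex and this value cannot be told apart. In the cultures of the same embryos the genotypes overlapped, with -0.01 ± 0.28 at 12 hours and 0.24 ± 0.20 at 24 hours (-0.47 and 0.098 with embryo sex as a term). *Nova2* overlapped between genotypes throughout, with means of 91.3% to 98.6% of the control.

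*Ptbp2* was higher without overlap in the 12-hour cultures of mutants, at 1306, 1285 and 1213 against 958, 1107 and 1090 in controls, where 5.09% of all genes were. The log2 fold change was 0.27 ± 0.15 (adjusted p = 0.913, limma). In the other 3 comparisons its genotypes overlapped, with values of -0.15 ± 0.13 at E11.5, 0.19 ± 0.13 at E14.5 and -0.21 ± 0.15 at 24 hours. With embryo sex as a term these were -0.087, 0.018 and -0.48, and leaving out 1 library gave -0.25 to -0.036, 0.097 to 0.27 and -0.31 to -0.084. The log2 of *Ptbp2* over *Ptbp1* was 1.46 to 1.81 in controls and 1.18 to 1.53 in mutants at E14.5, and 1.504 to 1.73 against 0.93 to 1.37 at 24 hours, without overlap at 24 hours only. At 12 hours the ranges were 0.90 to 1.33 and 1.24 to 1.37.

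**Figure D3:**
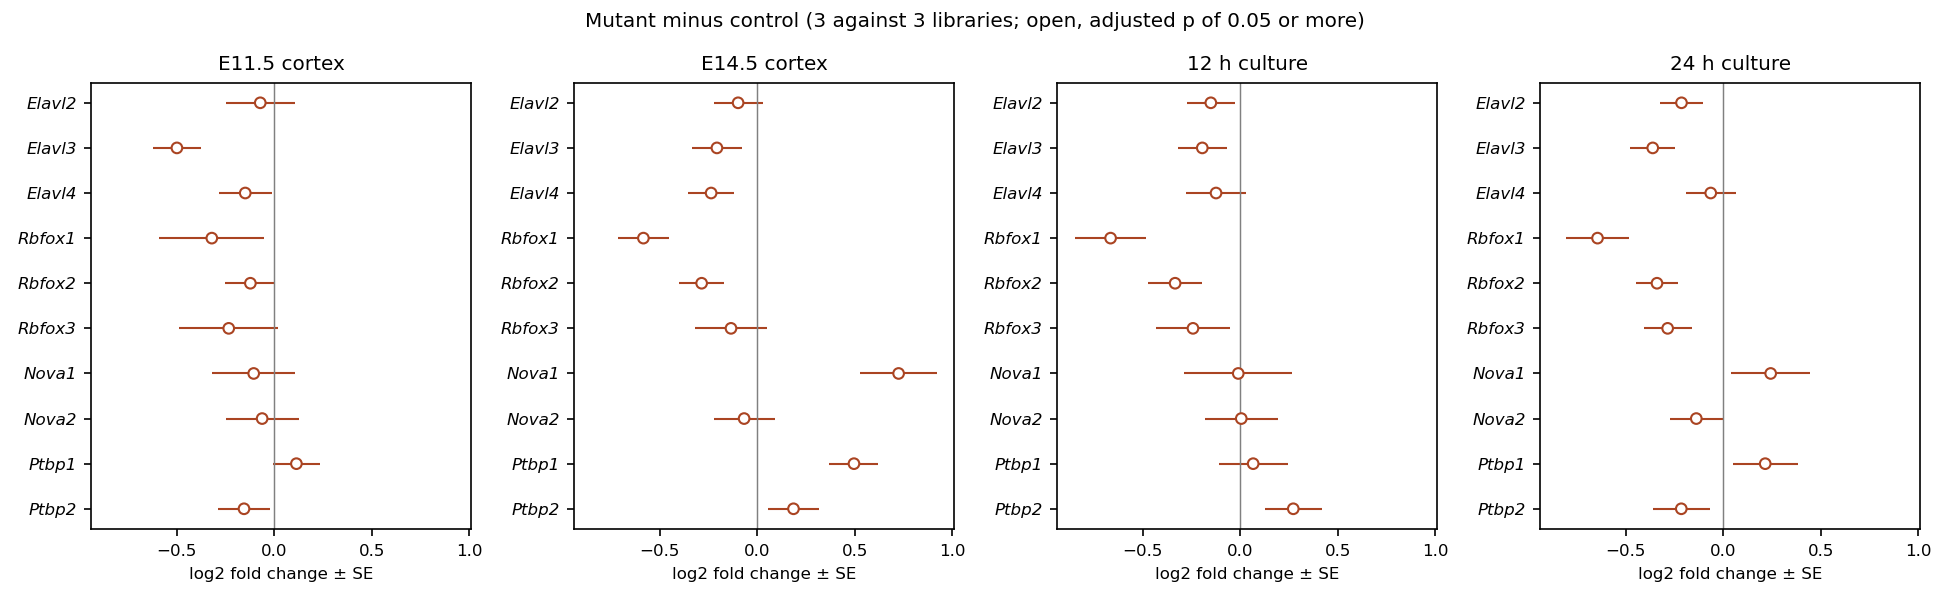
Log2 fold change ± SE (x axis) of mutants against controls for each gene at E11.5, at E14.5 and after 12 and 24 hours of culture, 3 libraries against 3. All points are open, since limma called 0 of the 10 genes, and *Rbfox1* lay between -0.66 and -0.58 in the last 3 panels.

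In the 12 cortices together, with age as a term, limma again called 0 of the 10 genes (background 0.139%). At an unadjusted p under 0.05 it gave 5 (background 8.71%), or 2 with embryo sex as a term, where the share of all genes was not computed. *Elavl3* differed by -0.35 ± 0.09 (adjusted p = 0.23, limma; exact permutation p = 0.01 with labels permuted within age, two-sided, smallest possible 0.005). *Rbfox1* differed by -0.45 ± 0.14 and *Rbfox2* by -0.20 ± 0.08, and *Ptbp1* by 0.30 ± 0.09 (adjusted p = 0.344, 0.496 and 0.347, limma). Their exact permutation p was 0.02, 0.025 and 0.025, not adjusted for the 10 genes. *Elavl4* was the fifth, at -0.19 ± 0.09 (adjusted p = 0.538, limma, and exact permutation p = 0.055). These 5 genes were picked by their unadjusted p in the same libraries, so the permutation p values are no separate support.

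Neuron marker levels also differed between the genotypes. At E11.5 all 10 had a negative fold change, with a median of -0.27 and 0 called by limma. Of them, 4 had an unadjusted p under 0.05 and 4 were lower without overlap, beside 7.39% and 6.11% of all genes. Their summed count was 9213 to 13645 in controls and 9532 to 10472 in mutants. It was 41325 to 43912 in control and 31867 to 33448 in mutant cortices of E14.5, where 9 of the 10 markers had a negative fold change and *Neurod6* was called lower (-0.87 ± 0.13). At 24 hours it was 37293 to 44385 and 29857 to 37130, with all 10 negative and *Neurod6* called lower (-0.71 ± 0.13), while at 12 hours it was 34821 to 47264 and 30038 to 39762. Choroid plexus markers summed to 4773 to 16216 in mutant and 1103 to 3817 in control cultures of 12 hours, and to 5042 to 16897 against 879 to 3630 at 24 hours. Microglia markers summed to 756 to 948 in mutant and 406 to 472 in control cortices of E14.5, with *Cx3cr1* called higher (1.12 ± 0.16) of the 6 tested. Apical progenitor markers summed to 15121 to 16791 in mutant and 11843 to 13803 in control cultures of 24 hours. Of these markers 9 of 10 were positive, 0 were called by limma and 4 had an unadjusted p under 0.05, beside 10.6% of all genes. Cajal-Retzius markers summed to 991 to 1286 in mutant and 643 to 829 in control cortices of E14.5. All 5 were positive, 0 were called and 4 had an unadjusted p under 0.05, beside 9.1% of all genes. In E14.5 cortex the choroid plexus sum was 7805 and 6599 in mutants 1 and 2 and 875 in mutant 6, the library that also stood apart for *Nova1*, against 3247 to 5434 in controls. The part of all these markers in the genotype values of *Rbfox1*, *Rbfox2*, *Elavl3*, *Nova1* and *Ptbp1* was not tested.

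**Figure D4:**
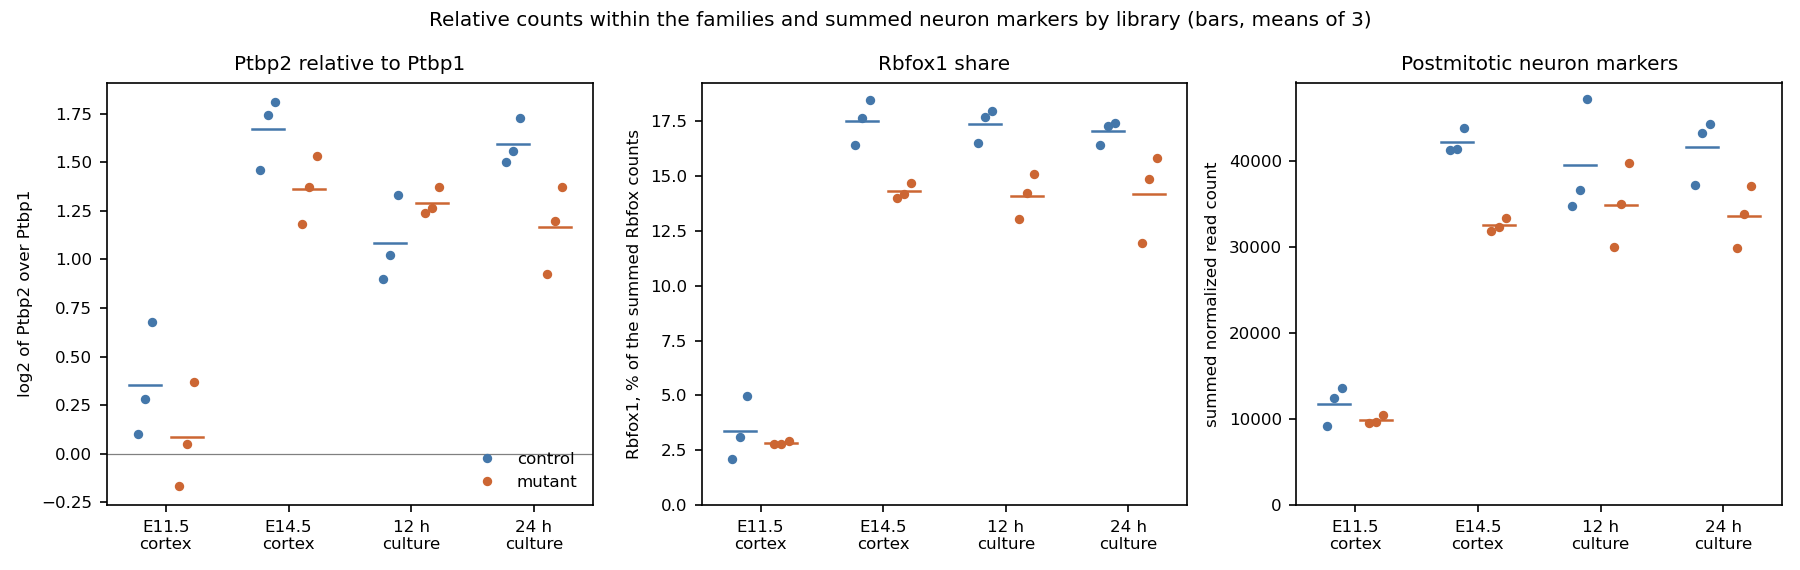
By library, the log2 of *Ptbp2* over *Ptbp1* (left), the share of *Rbfox1* in the summed Rbfox counts in percent (middle) and the summed count of 10 neuron markers (right), with controls in blue, mutants in orange and means of 3 as bars. All 3 were low at E11.5, and the *Rbfox1* share was below every control in the mutants of E14.5 and of both cultures (for E14.5, 14.0% to 14.7% against 16.4% to 18.5%).

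Over the 24 libraries, *Elavl3*, *Rbfox1*, *Rbfox2* and *Rbfox3* had Pearson's r of 0.92 to 0.98 with each other on the log2 scale, and *Ptbp1* had r of -0.93 to -0.83 with the other genes that rose with age apart from *Ptbp2* (r = -0.32). *Nova1* had r between -0.40 and 0.46 with each of the other 9. The libraries share embryos and the step between ages, so these values describe the table and are given without a test. Of 13678 genes, those most like *Elavl3* were *Gabra2* (r = 0.98), *Neurod2* (r = 0.98) and *Stmn2* (r = 0.98), and those most like *Rbfox3* were *Rtn1* (r = 0.99), *Map9* (r = 0.99) and *Jph4* (r = 0.98). For *Nova2* they were *Fam117b* (r = 0.95), *Psd* (r = 0.94) and *March4* (r = 0.94). For *Ptbp1* they were *Palld* (r = 0.96), *Prom1* (r = 0.95), which encodes the apical membrane protein CD133 of progenitors, and *Zcchc3* (r = 0.95). For *Ptbp2* the likeness was lower, with *Srr* (r = 0.85), *Lrrc75b* (r = 0.79) and *Hras* (r = 0.78).

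The order of the group means placed E11.5 last for *Elavl2*, *Elavl3*, *Elavl4*, the Rbfox genes and *Nova2*, and first for *Ptbp1*. For *Rbfox1*, *Rbfox3* and *Nova2* the step between E11.5 and the rest was the single place in the order where neighbouring groups did not overlap. For *Ptbp2* and *Nova1* all neighbours in the order overlapped. The spread within a group also differed between the genes, with a median coefficient of variation over the 8 groups of 5.10% for *Rbfox2* and 27.5% for *Nova1* at the ends. *Elavl2*, *Elavl3* and *Elavl4* were highest in control cortex of E14.5 and *Rbfox1*, *Rbfox2* and *Rbfox3* in the 24-hour control cultures.

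Of 31 other RNA-binding regulators listed for comparison, 30 passed the filter, and with age 8 rose and 12 fell, beside 23.8% and 29.3% of all genes, with a median log2 fold change of -0.05 beside -0.08 for all genes. The CELF proteins, which bind GU-rich elements, had 4 of 6 genes higher, among them *Celf4* at 2.05 ± 0.11, *Celf5* at 1.65 ± 0.14 and *Celf2* at 1.56 ± 0.08 on the log2 scale. *Khdrbs2*, of the STAR family, rose by 1.21 ± 0.11, and both microexon regulators of the list, *Srrm3* and *Srrm4*, rose by 1.23 ± 0.14 and 1.08 ± 0.15. The IGF2BP proteins, which bind and stabilize transcripts in fetal tissue, had 3 of 3 genes lower, with *Igf2bp1* at -2.07 ± 0.08 and *Igf2bp3* at -1.53 ± 0.08. The more widely made paralogues also fell, *Elavl1* by 0.93 ± 0.19 and *Ptbp3* by 0.61 ± 0.12 (adjusted p = 0.000636 and 0.000542, limma). In 12-hour culture 5 of the 30 rose and 0 fell, beside 14.1% and 16.1% of all genes, with *Mbnl1* (0.47 ± 0.11) and *Khdrbs2* (0.42 ± 0.11) first by p. The calls of *Celf2* and *Qk* there were lost under quantile normalization (adjusted p = 0.0602 and 0.35, limma). Genotype gave 0 of the 30 by limma in each of the 4 comparisons, with 8, 5, 2 and 8 at an unadjusted p under 0.05, beside 7.39%, 9.1%, 4.85% and 10.6% of all genes.

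Transcripts known as targets of these regulators were measured as whole amounts only. Of 8 such genes, 7 rose with age and *Flna* fell, beside 23.8% and 29.3% of all genes, with a median log2 fold change of 1.17. *Mapt*, which encodes tau, rose 11.3-fold, and *Gap43*, whose message ELAVL4 binds, rose by 2.16 ± 0.15 on the log2 scale. *Gabbr1*, a GABA-B receptor gene, rose by 1.54 ± 0.14, while *Dlg4*, which encodes PSD-95 and has an exon that PTBP1 and PTBP2 hold back, rose by 0.95 ± 0.11 and *Flna* fell by 0.79 ± 0.08. *Dlg4* also rose in 12-hour culture, by 0.90 ± 0.09 (adjusted p = 2.45e-06, limma). *Dab1*, a reelin signalling gene with exons that NOVA2 regulates, was the 1 gene of the 8 called between genotypes, with -0.92 ± 0.17 at 24 hours (adjusted p = 0.042, limma). The adjusted p was 0.000194 with DESeq2, 0.142 when the 24 libraries shared one fit and 0.23 with sex as a term, and 5 of the 6 fits that leave out 1 library did not call it (0.0031 to 0.2). Upstream of *Ptbp1*, *Rest*, a repressor of neuronal genes, fell with age by 0.95 ± 0.18, and *Mir124a-1hg*, a host transcript of the microRNA miR-124 that targets *Ptbp1*, rose by 1.22 ± 0.26 (adjusted p = 0.000309 and 0.000847, limma). The mature microRNA is not captured by these libraries.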

How the data were processed

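The authors trimmed reads of adapter and polyA sequence, mapped them to GRCm38 using TopHat2 (2.0.10) and assigned them to genes by strand with HTSeq (0.6.1). The deposited unit is signal, a read count over the library's size factor, and whole reads were recovered for 23 of 24 libraries, all but E11.5 control 1. Groups follow the labels' genotype, age and culture time. The 10 genes and all lists were chosen with earlier results of these data known. Log2 of the value plus 1 was fitted for all genes with a mean of at least 10 by limma (3.58.1, R 4.3.3) with an intensity trend, Benjamini-Hochberg adjustment over all genes and a threshold of 0.05, since the deposited values are not counts. Fold changes are on that scale. EdgeR (4.0.16) and DESeq2 (1.42.0) were run on whole reads. Exact permutation tests were two-sided. Labels pair libraries of the same embryo, whose deviations from group means had correlations of -0.11 to 0.24 (median 0.14, 18 pairs, 12 above 0.1). Alternatives were a pseudocount of 0.1 or 5, a mean of at least 50 or no filter, quantile normalization, rescaling without *Gm42418*, all libraries in one fit, terms for sex, name prefix (from the title) or embryo, and leaving out each library. Steps were tested on simulated counts. Besides the 10, listed genes past the threshold were named in order of p (up to 6 a comparison), with the 3 genes most correlated with 5 of the 10. *Srrm3*, *Srrm4*, *Elavl1*, *Ptbp3* and the single markers named were chosen after their values were seen.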

Additional observations from a re-analysis of the deposited data

How the results depend on the processing

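Of the alternatives that keep all libraries, 702 values of the 10 genes kept direction and call, 10 gained a call and 18 changed sign, and of those that leave out 1 library the numbers were 627, 3 and 30. None lost a call. The genes called between genotypes became 2 at E14.5 and 1 at 24 hours with DESeq2, 1 at 24 hours with no filter, and 0 to 1 at E14.5 with 1 library left out (1 without mutant 6). These genes were *Rbfox1* and *Nova1* at E14.5 (*Nova1* without mutant 6) and *Rbfox1* at 24 hours, and the cause was not tested. With sex as a term, *Elavl2*, *Nova1* and *Nova2* at E11.5 became 0.082, 0.085 and 0.10, *Rbfox3* at E14.5 0.18, *Elavl4* at 24 hours 0.033, and *Elavl2* and *Nova2* over 12 cortices 0.028 and 0.033. With edgeR and DESeq2, *Nova2* at 12 hours became -0.0059 and -0.0033. With quantile normalization, *Elavl4* at 24 hours became 0.036, *Ptbp2* over 12 cortices -0.0066, and *Rbfox1*, *Nova2* and *Ptbp1* between 12-hour culture and cortex -0.038, -0.081 and -0.079. Rescaled without *Gm42418*, *Nova1* at 12 hours became 0.034 and the last 3 genes -0.017, -0.045 and -0.064. With 1 library left out, the ranges at E11.5 were -0.28 to 0.096 (*Elavl2*), -0.37 to 0.092 (*Nova1*) and -0.27 to 0.089 (*Nova2*). At E14.5 they were -0.29 to 0.041 (*Rbfox3*) and -0.19 to 0.058 (*Nova2*). At 12 hours they were -0.26 to 0.016 (*Elavl4*), -0.27 to 0.24 (*Nova1*), -0.14 to 0.18 (*Nova2*) and -0.030 to 0.14 (*Ptbp1*), and at 24 hours -0.18 to 0.026 (*Elavl4*). Over 12 cortices they were -0.16 to 0.0025 (*Nova2*) and -0.043 to 0.087 (*Ptbp2*), and between culture and cortex -0.054 to 0.091 (*Nova2*) and -0.053 to 0.034 (*Ptbp1*). With the embryo as a block, pairing each culture with its cortex, 3 of the 10 genes were called for 12-hour culture and 0 between culture times. Of all genes, 3885 of 13601 and 104 of 13359 were called. For both genotype terms 0 of the 10 were called, where 3 of 13601 and 0 of 13359 genes were. With the name prefix as a block 9 of the 10 were called with age, where 6426 of 13650 genes were, and 0 for genotype. For genotype, 0 of 13406 genes were called at E11.5 and 21 of 13650 over the 12 cortices. That block only set apart the prefix of mutant 1 and control 1 within E11.5, so it cannot separate age from prefix. No call changed in these fits. *Rbfox1* was not tested at E11.5 with a mean of at least 50. EdgeR and DESeq2 were not run where E11.5 libraries enter. *Rbfox1* rests on 33 to 70 reads a library at E11.5 where whole reads were recovered, in all but control 1.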
